A study of Gallus gallus with 24 samples.

Results

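The proteasome is the multi-subunit protease that degrades proteins tagged with ubiquitin, and its subunits are named in vertebrates by symbols that begin with PSM. A barrel of alpha rings (PSMA genes) and beta rings (PSMB genes) forms the 20S core, inside which the beta subunits cut the substrate. The 19S regulatory particle caps the core: its ATPases (PSMC genes) unfold the substrate, and its non-ATPase subunits (PSMD genes) recognise ubiquitin and remove it. Dedicated chaperones (PSMG genes for the core, PSMD5, PSMD9 and PSMD10 for the cap) assist assembly, while PSME3, PSME4 and PSMF1 are an alternative activator, a second alternative activator and an inhibitor of the core. These roles are known mainly from yeast and mammals. In growing muscle the proteasome is best known for the turnover of contractile proteins.

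Proteasome genes were taken as all probe sets with a single annotated gene symbol that starts with PSM, a letter between A and G, and a number. That gave 58 of the 38535 probe sets, which stand for 37 of 13009 named genes. One of them, PSMC3IP, shares the symbol pattern but is a cofactor of meiotic recombination and no proteasome protein, so 36 genes were counted. They comprise 7 alpha ring genes, 6 beta ring genes, 5 ATPases, 2 non-ATPase subunits of the base, 6 lid subunits, 3 chaperones of the 19S particle, 4 chaperones of the core, and the 3 activators and inhibitor. All 36 genes passed the filter on low signals, and all 8 groups reached that filter in each of them. Of 48 proteasome symbols looked for, 12 had no probe set of their own here. Among these, PSMD4, PSMD11 and the activator PSME1 were in the RefSeq gene list used. The others were not in that list. They include PSMB6, PSMC4, PSMD8, the activator PSME2 and the interferon-inducible core subunits PSMB8, PSMB9 and PSMB10. Whether the chicken has genes for these others was not examined.

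RNA was measured in Ross broilers, a commercial meat strain, at day 7 after hatch and at day 0, just after hatching. The 8 groups were liver, whole brain, duodenum and breast muscle at day 7 and the same tissues at day 0, each with 3 arrays, 24 in all. Each array held a pool of RNA from 4 to 5 chicks that the labels call male, with no treatment other than age. Values are MAS5 signals, a linear hybridisation intensity per probe set that the authors scaled to the same trimmed mean on each array, so signals of different genes are not set against each other.

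Liver, brain, duodenum and muscle marker genes separated the tissues: on all 7 liver, 6 brain, 7 duodenum and 6 muscle markers every array of the labelled tissue lay above every other array. Correlations between log2 signals were 0.916 to 0.981 within a group and 0.513 to 0.804 between tissues. The arrays of duodenum day 7 pool 1 and duodenum day 0 pool 2 stood apart, with mean signals of the hybridisation controls of 43760.0 and 26510.0 (range of all 24 arrays 5913 to 43760.0, median 10270.0). In brain, the lowest ratios of 5' to 3' signal in the control transcripts belonged to pool 3 of day 7 and pool 1 of day 0. HINTW, which lies on the W chromosome that hens alone carry, gave signals of 1797 to 15930.0 over the 24 arrays. Whether this probe set also detects the related gene on the Z chromosome was not tested, and neither was the part of sex in the results.

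Age effects are differences of log2(signal + 28.4), day 7 minus day 0, from a limma fit over 25758 probe sets and all 24 arrays. A gene was called when its Benjamini-Hochberg adjusted p over all probe sets was under 0.05, and "rose" and "fell" are used of called genes. The p-values rest on the spread between the 3 pools of a group, estimated per probe set over all 8 groups together. A tissue whose pools scatter more or less than the others is judged by that shared spread. In whole tissues, fewer cells of a type and less RNA per cell cannot be told apart.

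In the duodenum 17 of 36 genes fell between hatch and day 7 and none rose, that is 47.2% called, against 19.2% called lower and 10.5% called higher among all 11421 genes tested. The median difference of the 36 genes was -0.44, against -0.12 over all genes, and 34 of 36 differences were negative, against 58.8% of all genes. With each array centred on its median 9 genes fell, and the median of the 36 genes was -0.38, against -0.06 over all genes. With quantile normalization 20 genes fell, and the median of the 36 genes was -0.55, against -0.11 over all genes. The share of all genes called was not counted in these settings. In breast muscle 11 genes rose and 2 fell, against 15.2% of all genes called higher and 18.2% called lower. The muscle median was 0.29, against -0.02 over all genes, and 8 of 36 differences were negative, against 51.4% of all genes. In liver 4 genes fell and none rose, against 8.99% of all genes called lower and 6.37% called higher, so the count was close to the background. The liver median was -0.22, against -0.01 over all genes, and 32 of 36 differences were negative, against 50.5% of all genes. In brain 0 of 36 genes were called by limma, where 0.298% of all genes were called, and 2 had an unadjusted p under 0.05. The median difference in brain was -0.09, and 29 of 36 differences were negative, against 49.3% of all genes. The genes share the same arrays, so the signs counted in each tissue are not independent. Altogether 12 of 36 genes were called in no tissue (46% of all genes), 17 in 1 tissue (33.9%), 4 in 2 tissues (15.6%), 3 in 3 tissues (4.46%) and 0 in all 4 (0.0963%). Those called in none were PSMA2, PSMA4 and PSMA6 of the alpha ring, PSMB2, PSMB3 and PSMB5 of the beta ring, PSMD6 and PSMD13 of the lid, the chaperones PSMD5, PSMG3 and PSMG4, and the inhibitor PSMF1.

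**Figure D1:**
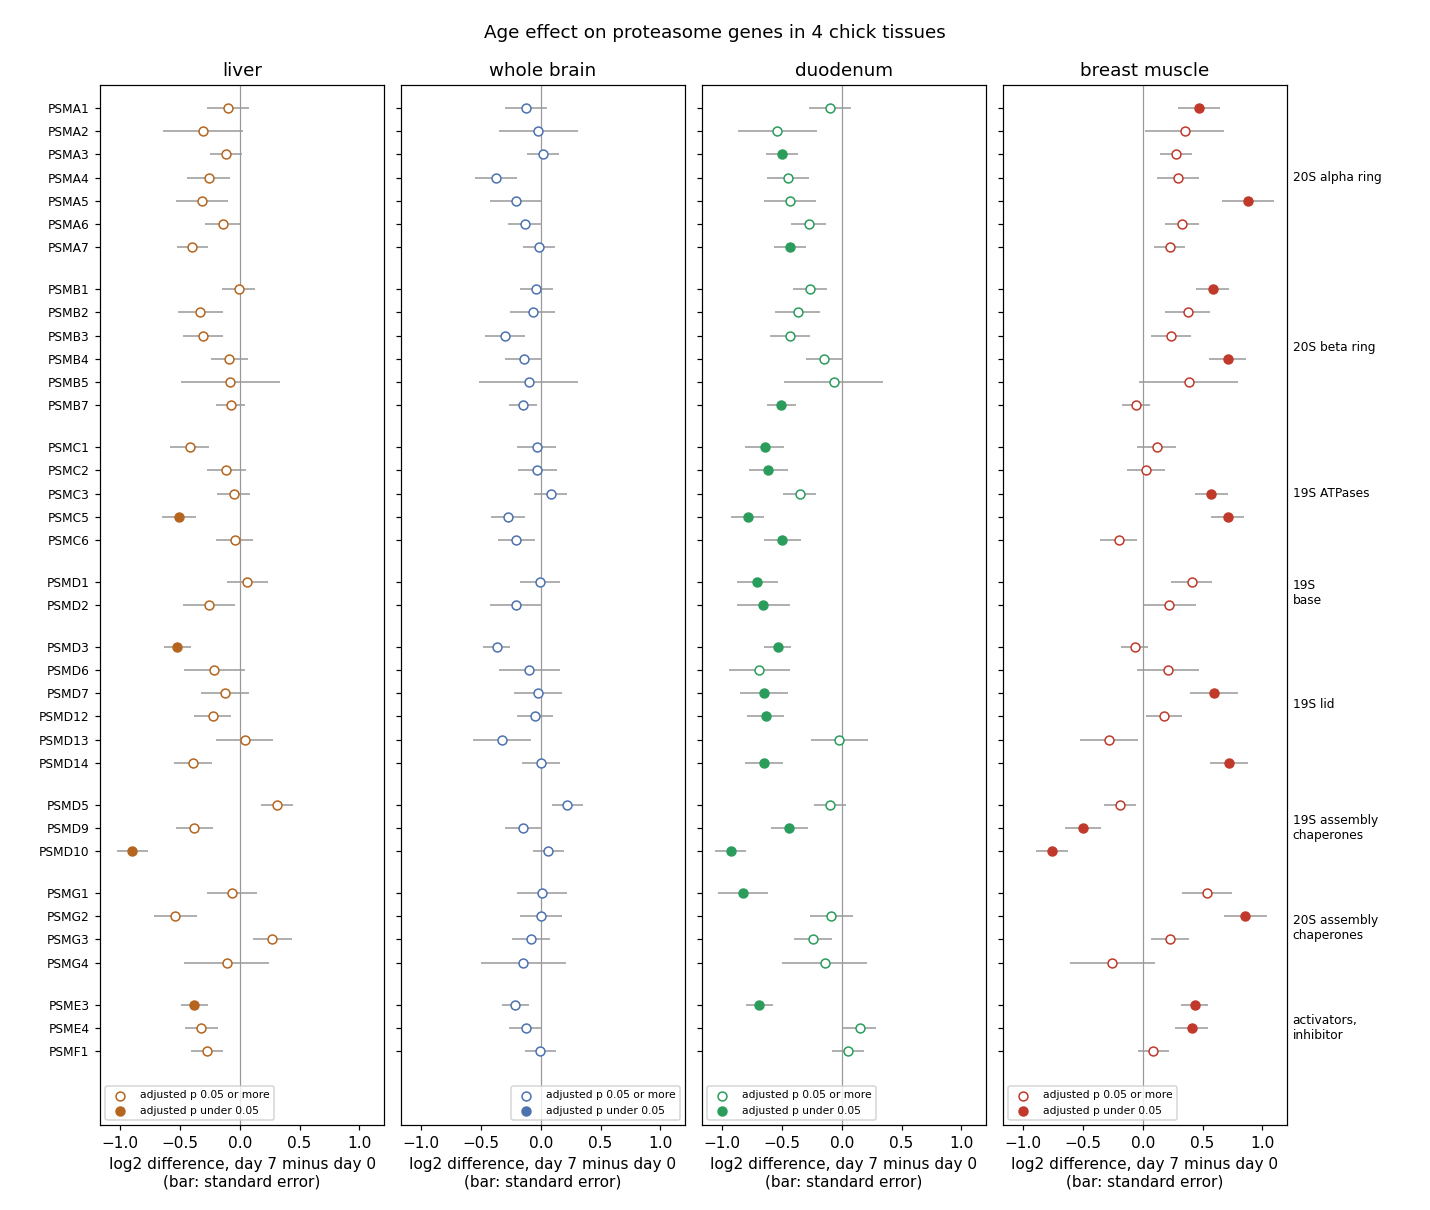
Log2 difference between day 7 and day 0 (x axis, bars are standard errors of the limma fit) of each of the 36 proteasome genes (rows, grouped by particle) in 4 tissues (panels), with filled points where the adjusted p was under 0.05. The 17 called duodenum points lie left of 0, 11 of the 13 called muscle points lie right of it, and no brain point is filled.

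In the duodenum the 19S regulatory particle held most of the called genes. Of its 13 genes 10 fell, and the median of the 13 was -0.64. Of the 13 core genes 3 fell, and the median of the 13 was -0.43. Lower calls made up 19.2% of all genes tested, so the core count was close to the background. The particles were not tested against each other. All 5 ATPases measured had negative differences and 4 of them fell. The ATPase PSMC5 had signals of 2618, 3514 and 3840.0 at day 7, against 5999, 4901 and 6247 at day 0. Every day 7 pool lay below every day 0 pool, and the log2 difference was -0.79 ± 0.14 (SE, n = 3 pools per group, limma adjusted p = 0.000195). PSMC1 (-0.64 ± 0.16), PSMC2 (-0.61 ± 0.16) and PSMC6 (-0.50 ± 0.15) fell as well. PSMC3 had a difference of -0.35 ± 0.14 and was not called.

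Both scaffold subunits of the 19S base fell in the duodenum, PSMD1 by 0.71 and PSMD2 by 0.66 on the log2 scale. PSMD1 had signals of 1940.0, 3589 and 3413 at day 7, against 5442, 3827 and 5028 at day 0, so the groups did not overlap. In the lid, 4 of 6 subunits fell. PSMD14, the deubiquitinase that removes ubiquitin chains from the substrate, had 2154, 2839.8 and 3201 at day 7, against 4489.8, 3223 and 5309 at day 0. Its highest day 7 pool lay just below its lowest day 0 pool, and its difference was -0.65 ± 0.16 (limma adjusted p = 0.00394). PSMD7, the partner of PSMD14 in the lid, had 2078, 4188 and 4721 at day 7, against 6662, 4244 and 5682 at day 0, which overlapped. PSMD7 was called at -0.65 ± 0.20 (limma adjusted p = 0.0184). PSMD3 and PSMD12 fell by 0.54 and 0.64 on the log2 scale, PSMD6 had a difference of -0.69 ± 0.26 (limma adjusted p = 0.0548), and PSMD13 one of -0.02.

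In the duodenal core, PSMA3, PSMA7 and PSMB7 fell. PSMB7, which carries the trypsin-like active site, had signals of 4254, 5513 and 5773 at day 7, against 8056, 6447 and 7507 at day 0. The groups did not overlap, and the difference was -0.51 ± 0.12 (limma adjusted p = 0.00311). PSMB5, the chymotrypsin-like subunit, was dim and scattered, with 516, 113 and 126 at day 7, against 200.0, 462 and 93.1 at day 0, so no difference was detectable. All 13 core genes had negative differences in the duodenum. Among the accessory genes, PSMD10, PSMD9, PSMG1 and PSME3 fell. PSMG1, a chaperone of the alpha ring, had 581, 958 and 1005 at day 7, against 1727, 1195 and 1589 at day 0. No pools overlapped, and the log2 difference was -0.83 ± 0.21 (limma adjusted p = 0.00496).

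The pair of duodenum arrays with high hybridisation controls was also low in proteasome genes within its groups. The median deviation of the 36 genes from the group mean was -0.27 in day 7 pool 1 and -0.30 in day 0 pool 2. The remaining arrays deviated by -0.10 to 0.19. Without both arrays 21 of 36 genes fell and the median was -0.46, against -0.14 over all genes. Without day 0 pool 2 alone 23 fell, and the median of the 36 genes was -0.59, against -0.11 over all genes. Without day 7 pool 1 alone 12 fell, and the median of the 36 genes was -0.30. With the 6 duodenum arrays fitted by themselves, 3 genes fell. The share of all genes called was not counted in any of these settings.

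**Figure D2:**
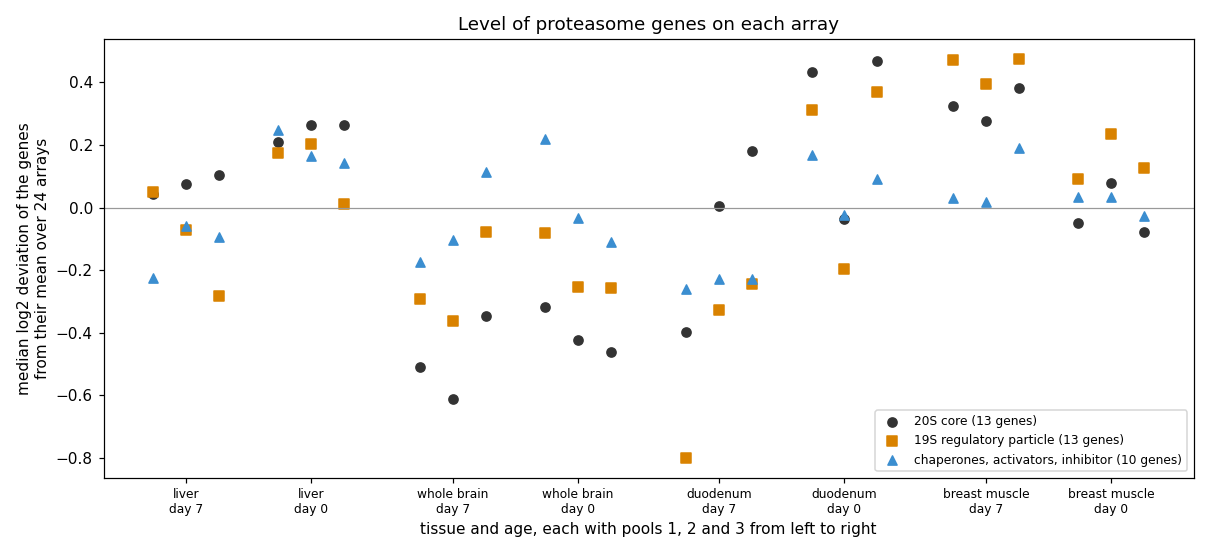
Median log2 deviation of the genes of 3 classes from their own mean over 24 arrays (y axis) for each array, grouped by tissue and age (x axis), with pools 1 to 3 from left to right. In the duodenum, day 7 pool 1 and day 0 pool 2 lie below the other pools of their groups, and the breast muscle core and 19S medians are higher on each day 7 array than on each day 0 array.

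In breast muscle, genes of both the core and the 19S particle rose. In the core 4 of 13 genes rose (PSMA1, PSMA5, PSMB1 and PSMB4) and 12 of 13 differences were positive, with a median of 0.35. In the 19S particle 4 of 13 rose (PSMC3, PSMC5, PSMD7 and PSMD14), and the median of the 13 was 0.21. Higher calls made up 15.2% of all genes tested in muscle. PSMA5, an alpha ring subunit, had signals of 18135, 17298 and 16378 at day 7, against 8749, 10615 and 8811 at day 0. The groups were far from overlapping, and the difference of 0.88 ± 0.22 (limma adjusted p = 0.00321) was the largest rise among the 36 genes in muscle. PSMB4, a structural beta subunit, had 10997, 9992 and 12097 at day 7, against 6373, 7089 and 6683 at day 0. Its difference was 0.71 ± 0.15 (limma adjusted p = 0.000987). PSMB1, another structural beta subunit, rose by 0.59 ± 0.14. PSMA1 was called at 0.47 ± 0.18 with an adjusted p of 0.0495, and lost its call in 21 of 37 alternative settings.

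Among the accessory genes of muscle, PSMG2, which pairs with PSMG1 as a chaperone of the alpha ring, rose most. It had 1475, 1731 and 1277 at day 7, against 791, 941 and 701 at day 0, a difference of 0.86 ± 0.18 (limma adjusted p = 0.000723). Its partner PSMG1 had a difference of 0.54 ± 0.21 and was not called (limma adjusted p = 0.0575). PSME4, an activator that binds the end of the core, had 4568, 5179 and 4605 at day 7, against 3528, 4015 and 3266 at day 0. The pools did not overlap, and PSME4 rose by 0.41 ± 0.14 (limma adjusted p = 0.0263). The inhibitor PSMF1 was called in no tissue, with differences of -0.28 to 0.09. The chosen probe set of PSMB7 was not called in muscle, with 7958, 7340.5 and 8022 at day 7, against 8153, 8252 and 7836 at day 0. A second, dimmer probe set of PSMB7 fell there by 1.18 on the log2 scale (limma adjusted p = 0.000101), and the mean of both probe sets was called at -0.62.

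The falls in muscle were both of 19S chaperones. PSMD10 (gankyrin in mammals) had 1094, 909 and 902 in muscle at day 7, against 1909, 1487 and 1581 at day 0, a difference of -0.76 ± 0.13 (limma adjusted p = 9.81e-05). It also fell in the duodenum, where it had 710.1, 765 and 795 at day 7, against 1468, 1465 and 1461 at day 0 (-0.93 ± 0.13, limma adjusted p = 1.21e-05). In liver it had 1235, 1368 and 1237 at day 7, against 2535, 2158 and 2551 at day 0 (-0.90 ± 0.13, limma adjusted p = 3.36e-05). In none of these 3 tissues did the pools overlap, and these falls were called under all 37 alternative settings. In brain PSMD10 had 1313, 1289 and 1472 at day 7, against 1471, 1237 and 1198 at day 0, which overlapped. The age effect in liver minus that in brain was -0.96 ± 0.19 (limma adjusted p = 0.00221). PSMD9, another 19S chaperone, fell in muscle by 0.50 and in the duodenum by 0.44 on the log2 scale, while the chaperone PSMD5 was called in no tissue.

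In liver the called genes were PSMD10, PSMD3, PSMC5 and PSME3. PSMD3, a lid subunit, had 3254, 2621 and 3005 at day 7, against 4436, 4208 and 4098 at day 0, with no overlap and a difference of -0.52 ± 0.11 (limma adjusted p = 0.00262). PSMC5 had 2748, 2443 and 2441 at day 7, against 3574, 3673 and 3653 at day 0 (-0.51 ± 0.14, limma adjusted p = 0.0169). No core gene was called in liver, although all 13 differences were negative, with a median of -0.14. The liver count was 10 when the liver arrays were fitted alone. It was 2 without liver day 0 pool 2 or without liver day 0 pool 3. No share of all genes was counted in these settings.

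In brain the differences of the 36 genes ran between -0.37 and 0.22. The brain arrays of lowest 5' to 3' ratio were high in proteasome genes within their groups. Their median deviation from the group mean was 0.15 in day 7 pool 3 and 0.14 in day 0 pool 1. The pools of day 7 all lay below those of day 0 in 5 genes and above in 0, and 15.6% of all genes separated in either direction. In muscle the day 7 pools lay above in 19 genes and below in 3, where 52.5% of all genes separated. In the duodenum they lay above in 0 and below in 12, against 37.6% of all genes, and in liver above in 2 and below in 17, against 39.7%.

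The age effect differed between tissues in 17 of 36 genes by an F test of the interaction, or 47.2%, against 39.1% of all genes, which is not far above the background. The F test called 27 genes without duodenum day 0 pool 2 and 30 with array weights. The share of all genes called in these settings was not counted, so they are not set against a background. The pairwise differences were concentrated on muscle, whose arrays these pairs share. The duodenum effect was below the muscle effect in 22 genes and above it in 0, where 17.5% of all genes were called in that direction. The liver effect was below the muscle effect in 11 genes (12.9% of all genes). The brain effect was below that of muscle in 7 genes (8.34% of all genes) and above it in PSMD10 alone (10.7% of all genes). Between liver and duodenum 1 gene was called (11.2% of all genes), between brain and duodenum 1 (14.6%) and between liver and brain 1, PSMD10 (6.31%). By sign alone 26 genes were negative in the duodenum and positive in muscle. Of all genes, 58.8% were negative in the duodenum and 51.4% in muscle, and the share with both signs was not counted.

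Fall in the duodenum and rise in muscle were both called in PSMC5, PSMD14, PSMD7 and PSME3. In muscle PSMC5 had 6169.8, 7906 and 6327 at day 7, against 4208, 4139.9 and 4021 at day 0 (0.71 ± 0.14, limma adjusted p = 0.000427). Its duodenum effect minus its muscle effect was -1.50 ± 0.20 (limma adjusted p = 4.52e-06), and its F test had an adjusted p of 1.5e-05. In muscle PSMD14 had 6138, 6295 and 6276 at day 7, against 3848, 3687 and 3805 at day 0 (0.72 ± 0.16, limma adjusted p = 0.00133). The day 7 and day 0 pools of both genes were well apart in muscle. PSMD7 rose in muscle by 0.59 ± 0.20, with 10574, 10106 and 9584 at day 7, against 6451, 6859 and 6701 at day 0. A second, dim probe set of PSMD7 was called in neither tissue, and with the mean of both probe sets PSMD7 was called in neither (0.33 in muscle, -0.0019 in the duodenum).

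PSME3, a ring-shaped activator of the core that in mammals acts in the nucleus without ubiquitin, was called in 3 tissues. In the duodenum it had 2887, 3074 and 3161 at day 7, against 5128, 4908 and 4750.0 at day 0 (-0.69 ± 0.11, limma adjusted p = 6.94e-05). In muscle it had 4468, 4343 and 4295 at day 7, against 2999, 3399.6 and 3282 at day 0 (0.44 ± 0.11, limma adjusted p = 0.00501). In both tissues the pools were tight and did not overlap. In liver it had 3271, 3390.3 and 3539 at day 7, against 4487, 4503 and 4319 at day 0 (-0.38 ± 0.11, limma adjusted p = 0.0274). A second probe set of PSME3 had the same signs in these 3 tissues (-0.44, 0.35 and -0.04 in duodenum, muscle and liver) and was not called.

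**Figure D3:**
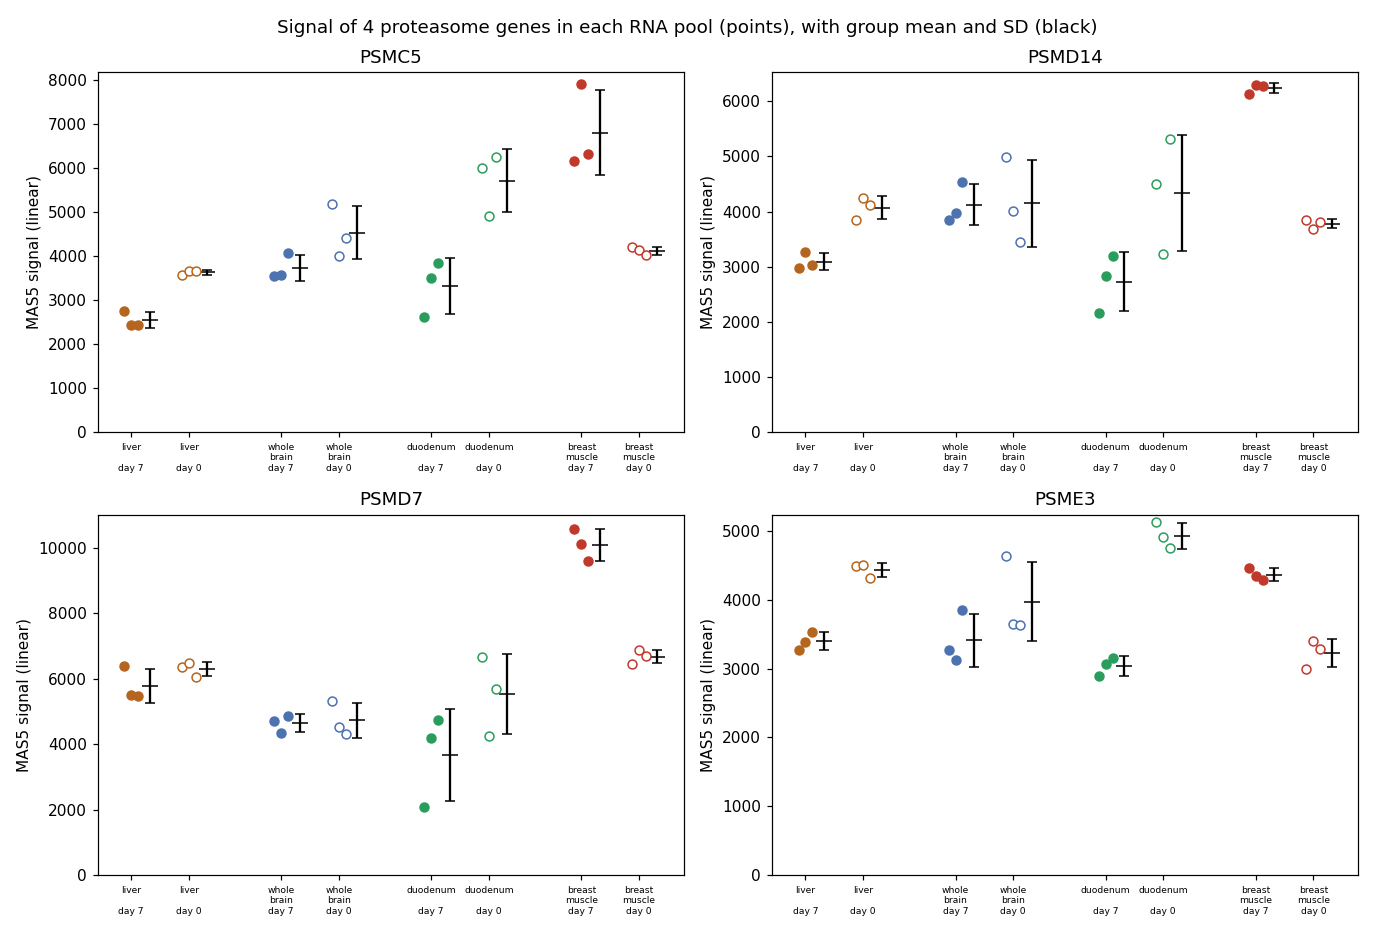
MAS5 signal (y axis, linear) of PSMC5, PSMD14, PSMD7 and PSME3 in each RNA pool (filled points day 7, open points day 0) of 4 tissues, with group means and SD in black (n = 3). The breast muscle pools of day 7 lie above those of day 0 in all 4 genes, and the duodenum pools of day 7 lie below those of day 0 except for an overlap in PSMD7.

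Among all genes tested, 19.2% fell and 10.5% rose in the duodenum, and 15.2% rose and 18.2% fell in muscle. In liver 8.99% fell and 6.37% rose, and in brain 0.298% were called. Genes of dividing cells had calls mostly in the same direction as the proteasome genes in the duodenum and muscle. In liver both had falls, though the proteasome count there was close to the background. Of 11 dividing cell genes tested, 10 fell in the duodenum (median -1.49) and 8 rose in muscle (median 1.16). In liver 10 of them fell and 1 rose (median -1.12), and 0 were called in brain. Their summed signal was 19192 to 22704 in the duodenum at day 7, against 49351 to 57267 at day 0. In muscle it was 16253 to 17609 at day 7, against 7555 to 8003 at day 0, and in liver 15315 to 18154 at day 7, against 31329 to 37560 at day 0. Brain had 7114 to 7984 at day 7, against 5920 to 6889 at day 0. T cell and cytotoxic cell genes also moved: 6 of 8 rose in the duodenum and 6 of 8 in liver, where 0 of 8 were called in brain and 0 of 8 in muscle. The summed signal of all 9 listed genes was 19428 to 24655 in the duodenum at day 7, against 1636 to 1887 at day 0, and 4482 to 4769 in liver at day 7, against 1164 to 1518 at day 0. The lowest group mean among the 8 tested T cell genes was 13.3, of CD3D in brain at day 7. Of 7 antigen presentation genes 7 rose in the duodenum, 6 in liver and 2 in brain, and in muscle 5 rose and 1 fell. Their summed signal was 75120 to 153283 in the duodenum at day 7, against 15196 to 19949 at day 0, and 15588 to 19948 in muscle at day 7, against 8387 to 9101 at day 0. Of 6 red blood cell genes 3 rose in liver, 3 in brain, 4 in the duodenum and 2 in muscle, and none fell. Their summed signal was 17221 to 18647 in the duodenum at day 7, against 6594 to 9019 at day 0, and 56068 to 72937 in muscle at day 7, against 42997 to 49092 at day 0. Of the 7 duodenum markers 3 rose in the duodenum (FABP2 by 1.11, SLC15A1 by 1.03 and RBP2 by 0.82), and their summed signal was 92242 to 164553 at day 7, against 68031 to 79393 at day 0. Markers of other tissues that moved in the duodenum were NEFM and SNAP25 of 6 brain markers, which fell, ACTA1 of 6 muscle markers, which fell, and 3 of 7 liver markers, of which TTR fell and FGB and FGG rose. Some of these were dim, with means below the filter signal of 104.57. FGB averaged 75.9 at day 7 and 31.6 at day 0, with overlapping pools. NEFM (25.6) and SNAP25 (52.8) were that low at day 7, and FGG (47.7) at day 0. Of the 6 muscle markers 1 rose in muscle, where their summed signal was 362887 to 445658 at day 7, against 276787 to 278747 at day 0. The part of these cells in the proteasome result was not tested.

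Other genes of the ubiquitin system were described from lists. Of 11 proteasome partners with other symbols, 4 fell and 0 rose in the duodenum (median -0.42). In muscle 3 rose and 0 fell (median 0.04), and in liver 1 fell. Of all genes tested, 19.2% fell in the duodenum, 15.2% rose in muscle and 8.99% fell in liver. UCHL5, a deubiquitinase of the 19S particle, averaged 1069 ± 105 in the duodenum at day 7 and 2384 ± 221 at day 0 (SD, n = 3 each), a difference of -1.14. UCHL5 fell in liver too, by 0.88 on the log2 scale. POMP, the maturation factor of the core, averaged 7069 ± 237 in muscle at day 7 and 3835 ± 601 at day 0 (SD, n = 3 each), a difference of 0.89. In the duodenum POMP fell by 0.46 and USP14, a second 19S deubiquitinase, by 0.74, and in muscle USP14 rose by 0.60. SEM1, the smallest lid protein in yeast and mammals, rose by 1.71 in muscle.

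Of 17 ubiquitin-conjugating E2 enzymes tested, 8 rose and 0 fell in muscle, against 15.2% and 18.2% of all genes, with a median of 0.51. UBE2K, which extends ubiquitin chains, averaged 9966 ± 1270.0 in muscle at day 7 and 3336 ± 229 at day 0 (SD, n = 3 each), a difference of 1.57. UBE2G1 rose by 1.19 and UBE2R2 by 0.97 in muscle. In the duodenum 1 E2 rose and 4 fell, near the 10.5% and 19.2% of all genes. In liver 2 rose, against 6.37% of all genes. Of 11 shuttle and p97 genes, VCP, the p97 segregase itself, rose in muscle by 0.41 and FAF2 fell there by 0.96. FAF1 fell in liver and duodenum, and no other gene of this list was called. Of all genes tested, 15.2% rose and 18.2% fell in muscle, 8.99% fell in liver and 19.2% fell in the duodenum. NFE2L1, the transcription factor that drives proteasome genes in mammals when the proteasome is impaired, rose in both the duodenum (1.32) and muscle (0.89), and was the 1 gene called of 5 such regulators. Among all genes, 10.5% rose in the duodenum and 15.2% in muscle. The ubiquitin precursor RPS27A and the E1 enzyme UBA6 were called in no tissue, with differences between -0.32 and 0.21. Of 8 muscle ubiquitin ligases, FBXO40 rose by 1.84 and FBXO32 (atrogin-1) fell by 1.77 in muscle. That is 1 of 8 in each direction, against 15.2% of all genes called higher and 18.2% called lower.

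**Figure D4:**
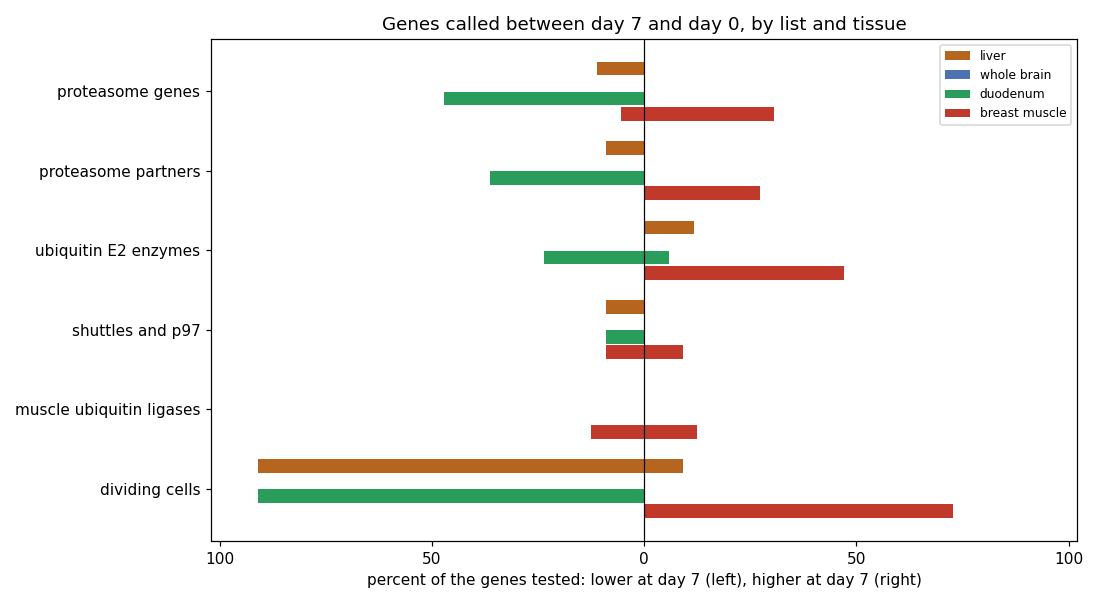
Percent of the genes tested in each list that were called lower (bars to the left) or higher (bars to the right) at day 7 than at day 0, by tissue. Lower calls of proteasome genes are most frequent in the duodenum and higher calls in breast muscle, and the dividing cell genes have most of their calls in the same directions.

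Levels were also set against the other 3 tissues of the same age. At day 7, breast muscle was higher than the mean of the other tissues in 22 of 36 proteasome genes and lower in 0, where 27.8% of all genes were called higher and 33.7% lower. The muscle median was 0.44, against -0.09 over all genes. In the core 9 of 13 genes were higher in day 7 muscle and in the 19S particle 10 of 13. Muscle had the highest mean of the 4 tissues in 26 genes at day 7 (share of all genes not counted). It stood above each of the other 3 tissues, each pair being called, in 12 genes, against 13.2% of all genes: PSMA1, PSMA5, PSMB4, PSMB7, PSMC1, PSMC2, PSMC5, PSMD7, PSMD12, PSMD14, PSME3 and PSME4. Further probe sets of PSMB7, PSMD7, PSME3 and PSME4 did not have muscle highest at day 7. That of PSMB7 averaged 394 in muscle, 572 in liver, 616 in duodenum and 862 in brain. The dim one of PSMD7 had 81.4 in muscle and 136 in duodenum. Liver exceeded muscle on that of PSME3 (1625 against 1340) and on both of PSME4 (825 against 767, 1265 against 1152). At day 0 muscle was higher than the other tissues in 5 genes and lower in 5, against 24.9% and 31.9% of all genes. With quantile normalization that split was 5 higher and 8 lower.

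PSMA5 was the gene most raised in muscle at both ages. Its day 7 muscle signals of 16378 to 18135 compared with 4143 to 4396 in liver, 2682 to 3239.9 in brain and 3221 to 5349 in the duodenum at day 7. Muscle exceeded the mean of the others by 2.18 ± 0.18 (log2, limma adjusted p = 1.21e-10) at day 7 and by 0.98 ± 0.18 (limma adjusted p = 5.25e-05) at day 0. PSMA5 was the 1 gene above each other tissue in muscle at day 0, against 10.3% of all genes. PSMD7 exceeded the other tissues by 1.15 ± 0.16 in muscle at day 7. At day 0 PSMG2 had the most negative muscle difference of the 36 genes (-1.16 ± 0.15).

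Brain was lower than the other tissues in most core genes. At both ages 10 of the 13 core genes were lower in brain and 0 were higher, and all 13 differences were negative, with medians of -0.61 at day 7 and -0.53 at day 0. Over the 36 genes, brain was lower in 15 and higher in 5 at day 7, against 37.3% and 31.3% of all genes. At day 0 it was lower in 20 and higher in 4, against 38.4% and 29.1%. The medians of the 36 genes were -0.31 at day 7 and -0.40 at day 0, against -0.14 and -0.18 over all genes. With each array centred on its median the day 7 split was 20 lower and 3 higher. With quantile normalization it was 14 lower and 5 higher, and the median of -0.21 was near the -0.18 of all genes. At day 0 quantile normalization gave 17 lower and 4 higher, with a median of -0.30 against -0.23. PSMA5 had the most negative brain difference of the 36 genes at both ages, with -1.26 ± 0.18 at day 7 and -1.01 ± 0.18 at day 0. PSMD13, a lid subunit, was lower in brain at day 7 by 1.00 on the log2 scale.

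PSMC3 and PSMG2 ran the other way in brain. PSMC3, an ATPase of the 19S base, had 1815, 1896 and 2175 in brain at day 7, where liver had 636 to 758, duodenum 581 to 746 and muscle 1214 to 1405. Every brain pool lay above every pool of the other tissues, and the difference from their mean was 1.17 ± 0.11 at day 7 and 1.14 ± 0.11 at day 0 (limma adjusted p = 2.21e-09 and 3.47e-09). A second, dim probe set of PSMC3 did not have brain highest at day 7. It averaged 43.2 in brain, 43.3 in duodenum, 101.9 in liver and 121.3 in muscle. Of its group means, that of day 7 muscle alone reached the filter signal of 104.57. PSMG2 had 2744, 2656 and 3109.8 in brain at day 7, where no other day 7 pool exceeded 1731. Its difference was 1.13 ± 0.15 at day 7 and 1.21 ± 0.15 at day 0. PSMD5 and the inhibitor PSMF1 were also higher in brain than the mean of the other tissues at both ages. PSMF1 was higher by 0.42 at day 7 and 0.38 at day 0. For PSMD5, muscle averaged 2128 and brain 2108 at day 0. A second probe set of PSMD5 had muscle above brain at both ages (1744 against 1519 at day 7, 1459 against 1358 at day 0).

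Against the other tissues, the share of genes called lower in the duodenum at day 7 and the share called higher at day 0 were close to the background. At day 7 it was lower than the other tissues in 13 genes and higher in 2, against 31.9% and 26.2% of all genes, with 9 of 13 genes of the 19S particle lower. At day 0 it was higher in 9 genes and lower in 2, against 28.5% and 24.4% of all genes. The split at day 0 was 6 higher and 1 lower after median centring, and 23 genes were higher of 25 called without the duodenum arrays of high hybridisation control signal. The duodenum had the lowest mean of the 4 tissues in 15 genes at day 7 and in 2 at day 0. It had the highest in 2 genes at day 7 and in 14 at day 0. Shares of all genes were not counted for these ranks. The most negative duodenum differences at day 7 were those of PSMD7 and PSMD1 (-0.90 ± 0.16 and -0.87 ± 0.14). PSMD3 was higher in the duodenum at both ages, by 0.55 at day 7 and 0.77 at day 0.

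Liver was higher than the other tissues in 5 genes and lower in 6 at day 7, against 25.7% and 30.8% of all genes. At day 0 it was higher in 11 genes and lower in 4, against 27.1% and 32.6%. The day 0 split depended on the scaling, with 15 higher and 2 lower after median centring and 5 higher and 6 lower after quantile normalization. PSMD13 was the most raised in liver at day 7 (0.88 ± 0.20) and PSMD10 at day 0 (0.71 ± 0.11). A further, dimmer probe set of PSMD13 averaged 122 in liver, 122 in muscle and 93.5 in brain at day 7. Its duodenum pools at day 7 scattered, with 2822, 93.9 and 110. PSMC5 and PSMC3 were lower in liver at day 7, with differences of -0.77 and -0.75, the most negative of the 36 genes. The dim second probe set of PSMC3 had liver above brain and duodenum at day 7, at 101.9 against 43.2 and 43.3.

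**Figure D5:**
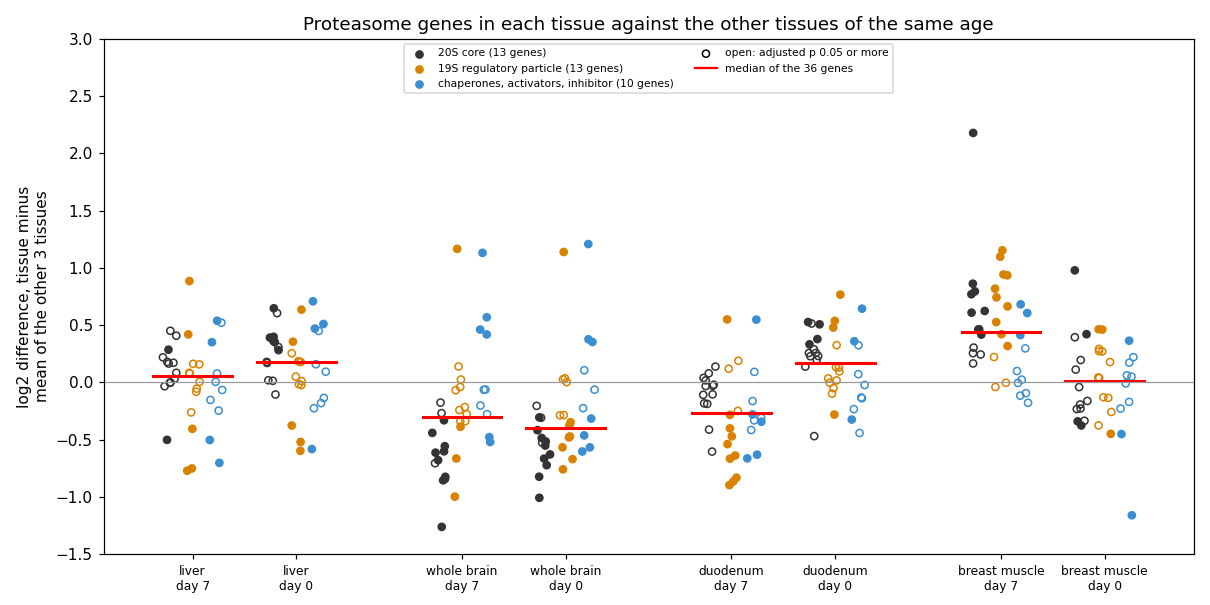
Log2 difference of each proteasome gene between a tissue and the mean of the other 3 tissues of the same age (y axis) for 4 tissues at day 7 and day 0 (x axis), with red bars at the median of the 36 genes and filled points where the adjusted p was under 0.05. The muscle median lies at 0.44 at day 7 and 0.01 at day 0, the duodenum median at -0.27 at day 7 and 0.17 at day 0, and the PSMA5 point at 2.18 is the highest.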

How the data were processed

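RNA of 24 pools was hybridised to Affymetrix chicken arrays. The authors deposited a table of intensity values for all probe sets; MAS5 is the tool named in the submitters' processing notes. For its version and the genome build: not given in the sources used here. Coordinates are therefore left out. On each array the mean of the deposited intensity values with 2% trimmed at each end was 499.9. Arrays give no counts, and the number of pools limits the precision.

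In R 4.3.3 with limma 3.58.1, 8 group means were fitted to log2(signal + 28.4), the added value being the 25th percentile of all signals, after leaving out 96 control probe sets. Probe sets were kept when the mean of at least 1 group reached the median signal of 104.57, leaving 25758, with 11421 genes. The variance trend was on, and p-values were adjusted over all 25758 probe sets. Residual degrees of freedom were 16. A gene with more than 1 probe set, as 16 proteasome genes have, is represented by the brightest on average. Of all probe sets, 27178 have 1 symbol, 177 several and 11180 none, from GEO's platform annotation updated through RefSeq gene numbers (26863 matched). The steps were tested on simulated data.

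The members and all gene lists were chosen with earlier results of these data known. Genes are named with full values by a rule: per tissue up to 4 largest rises and falls without overlap of pools, up to 2 highest and lowest genes per tissue and age, the catalytic subunits, activators and inhibitor, the 5 smallest p of the F test, genes called in opposite directions, and up to 3 per other list. PSMC3IP met this rule, and its values stand in the closing section. Others were named after their values were seen.

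Over all probe sets tested, deviations of same-numbered pools correlated at -0.44 to 0.38 between ages of a tissue (over 0.1 in 2 of 12 pairs). Within an age the correlation was over 0.1 in 1 of 18 pairs at day 7 and 1 of 18 at day 0. HINTW ran otherwise within an age. At day 0 pool 1 was lowest in each tissue (1797, 4551, 3050 and 2038 in liver, brain, duodenum and muscle). At day 7 pool 2 was lowest in each (2241, 4977, 2996 and 4017). The numbers were not used to pair, and whether same-numbered pools share chicks was not tested. Comparisons between tissues took the pools as independent. No 2 arrays were identical. Alternatives changed the added value, the filter, the normalization (quantile, median centring), the variance trend, array weights, the summary over probe sets, the arrays fitted and a block on the replicate number, and left out each array in turn and the pairs of arrays that stood apart.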

Additional observations from a re-analysis of the deposited data

Results flagged for a closer look

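The age effect differed between tissues by the F test of the limma fit in 17 of 36 proteasome genes, each listed with its adjusted p. That is 47.2%, against 39.1% of all genes, which is not far above the background. PSMC5 (1.5e-05), PSME3 (5.33e-05), PSMD14 (0.000238) and PSMD7 (0.0103) fell in the duodenum and rose in muscle. PSMD10 (0.000425) fell in all tissues but brain. PSMG2 (0.00115), PSMA5 (0.005), PSMC3 (0.00537), PSMB4 (0.00622), PSMB1 (0.00942) and PSME4 (0.021) rose in muscle and were not called elsewhere. PSMD1 (0.00597), PSMG1 (0.00707), PSMA3 (0.0162), PSMA7 (0.0181), PSMD12 (0.0296) and PSMC1 (0.0384) fell in the duodenum and were not called elsewhere.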

How the results depend on the processing

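No called age effect of a named gene changed sign in any alternative; differences of single genes between tissues were run in the main setting alone. The duodenum count of 17 was 9 with median centring and 3 with the duodenum fitted alone. The liver count of 4 was 10 with array weights, 10 with liver fitted alone, 10 without the pair of duodenum arrays of high hybridisation control signal and 7 without the pair of brain arrays of low 5' signal. The F test called 17 genes and 30 with array weights. For the duodenum at day 0 against the other tissues, 11 became 7 with median centring, 25 with array weights and 25 without those duodenum arrays. For muscle at day 0, 10 became 21 with array weights and 20 without them. The cause was not tested. Shares of all genes called were counted in the main setting alone, so the counts of the alternatives have no background beside them.

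With each array left out in turn the age counts ran over 2 to 7 in liver, 0 to 0 in brain, 12 to 23 in the duodenum and 9 to 15 in muscle, and the F test over 14 to 27. Liver had 2 without its day 0 pool 2 or its day 0 pool 3 and 7 without duodenum day 0 pool 2. The F test had 27 without duodenum day 0 pool 2. Against the other tissues the ranges at day 7 were 6 to 12 in liver, 18 to 24 in brain, 10 to 17 in the duodenum and 20 to 23 in muscle, and at day 0 they were 11 to 16 in liver, 20 to 27 in brain, 8 to 21 in the duodenum and 7 to 14 in muscle. Liver at day 7 had 6 without its day 7 pool 2, and the duodenum at day 0 had 21 without its day 0 pool 2.

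Median centring shifted the median of all genes by 0.12 in the muscle age effect, where 11 proteasome genes rose and 1 fell and their median was 0.40. It shifted liver at day 0 by 0.19, brain by -0.15 at day 7 and -0.12 at day 0, and muscle by 0.11 at day 7. With the replicate number as a block, the age counts were 5 in liver, 0 in brain, 17 in the duodenum and 12 in muscle. The F test then called 16. Whether the numbers pair the pools was not settled. Calls lost most often over 37 alternatives were PSMA1 in muscle (21), PSMD9 in the duodenum (12), PSME3 in liver (8), PSMD7 in muscle (8), PSMD2 in the duodenum (7), PSMD7 in the duodenum (6) and PSME4 in muscle (6). Dim genes such as PSMB5 are limited by signal over background, and its 2 probe sets differ.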

Other observations

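PSMC3IP, which shares the symbol pattern and is no proteasome gene, fell in 3 tissues by more than the chosen probe set of any proteasome gene. It had 158, 210.4 and 209 in liver at day 7, against 446, 552 and 531 at day 0 (-1.29 ± 0.26, SE, limma adjusted p = 0.00112). The differences were -1.20 in the duodenum and -1.13 in muscle, and in brain -0.30, which was not called. Its pools of day 7 and day 0 did not overlap in the 3 tissues.

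There are 6 probe sets that name a PSM gene together with a second gene, and none was counted. One shared by PSMD4 and PIP5K1A averaged 1914 in the duodenum at day 7 and 3015 at day 0 (-0.60, limma adjusted p = 0.0254), and 5863 in muscle at day 7 and 3553 at day 0 (0.72, limma adjusted p = 0.0064). A further probe set shared by PSMD4 and PIP5K1A was called in neither tissue. It had -0.56 in the duodenum (limma adjusted p = 0.276) and 0.53 in muscle (limma adjusted p = 0.287). One shared by CCDC50 and PSMD6 had -0.54 in the duodenum (limma adjusted p = 0.0321) and 0.90 in muscle (limma adjusted p = 0.000481). One shared by PSME3 and AOC3 had -1.35 in muscle, against the rise of the single-gene probe set of PSME3.

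Other probe sets of the same gene differed from the chosen one in several cases. The second probe set of PSMB5 rose in muscle (1.48 ± 0.45, limma adjusted p = 0.0146). The second probe set of PSMB7, which fell in muscle, had -0.03 in the duodenum. A further probe set of PSMG4 fell in muscle by 0.90 on the log2 scale (limma adjusted p = 0.00443), where the chosen one had -0.25 and was not called. The second probe set of PSMA6 fell in liver by 0.88 and in muscle by 0.76, where the chosen one had 0.33 and was not called.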
